A study of Mus musculus with 19 samples.

Results

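Chemokines are small secreted proteins that bind receptors on leukocytes and other cells and draw them along a gradient. In the liver they are made by hepatocytes, Kupffer cells (the resident macrophages), endothelial cells and hepatic stellate cells (HSCs), and they set which leukocytes enter injured tissue. CXCL14 differs from most of the family, since it is made in healthy epithelia without an inflammatory stimulus and its receptor is still debated. The genes described here are *Cxcl14* and 9 other chemokine genes of the liver, *Cxcl12*, *Cxcl9*, *Cxcl10*, *Cxcl13*, *Cxcl16*, *Ccl2*, *Ccl5*, *Ccl6* and *Ccl9*, taken by name from a table that listed 31053 mouse genes. *Cxcl14* was chosen by its measured level in AAV-miR-34b/c against AAV-GFP livers, and the others were added as chemokines of the liver. Its values are therefore given as a description, with no test, and so are the values of the other chemokines in that comparison.

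All livers came from male C57BL6J mice that were 6 to 8 weeks old at entry. Vehicle mice (n = 5) had received PBS and, as far as the labels state, no vector. AAV-GFP mice (n = 7) had received thioacetamide (TAA), a hepatotoxin, at rising doses for 12 weeks, and at week 10 of TAA an adeno-associated virus of serotype 8 (AAV8) that expressed eGFP. AAV-miR-34b/c mice (n = 7) had received the same TAA and, at the same week, a pair of AAV8 vectors that expressed miR-34b and miR-34c. In all vectors the transgene was driven by TBG, a hepatocyte-specific promoter, so cells other than hepatocytes were not meant to express it. Mice were killed 4 weeks after the vector. Vehicle differed from AAV-GFP both in TAA and in the vector, and the contribution of each cannot be told apart.

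The 3′ ends of polyadenylated liver transcripts were sequenced and counted by gene, and totals per library ranged from 2214073 to 5208405 counts. Levels are in CPM, the counts divided by the library size after TMM scaling. Counts of 3′ ends are not scaled to gene length, and levels were compared mainly between livers rather than between genes. Hepatocyte markers were abundant in all 3 groups, with summed levels of 68339 to 83966 CPM in vehicle, 66441 to 76914 in AAV-GFP and 58369.5 to 88381.5 in AAV-miR-34b/c livers. Markers of T and NK cells were scarce, and the 12 genes summed to at most 8.18 CPM in any library. Some libraries of a group resembled each other closely, namely vehicle 1 with 4 and 3 with 5, AAV-GFP 1 with 2, and AAV-miR-34b/c 1 with 2, 3 with 4 and 5 with 7 (coefficient of variation beyond counting noise under 0.2). Over all genes, AAV-miR-34b/c libraries 1 and 2 differed from the other 5 of their group by a coefficient of 0.349 to 0.479, whereas those 5 differed among themselves by at most 0.269. AAV-GFP libraries 6 and 7 differed from 1 to 4 by 0.341 to 0.395 and were left out only one at a time. Vehicle libraries 1 and 4 did not stand apart over all genes, but were far higher in *Saa1*, an acute phase gene, than the other 3. Results that rest on vehicle 1 and 4 or on AAV-miR-34b/c 1 and 2 are given with and without them. In bulk tissue, fewer cells of a type and less RNA per cell cannot be told apart.

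The sequences that bear on the vector are the seed of the delivered microRNA and its matches in the chemokine transcripts. MicroRNAs pair through the seed, bases 2 to 8, with sites in the 3′ untranslated region (3′ UTR) of target transcripts, which lowers their level or translation. The mature mmu-miR-34b-5p of RefSeq (GRCm38.p6, minus strand of chromosome 9, 51103610 to 51103632) is shown with its seed in capitals. The mature sequence of miR-34c-5p was not used here.

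mmu-miR-34b-5p: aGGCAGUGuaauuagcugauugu

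The complement of this seed, CACTGCC, occurred in the longest annotated 3′ UTR of 2 of the 10 chemokines, against 14.3% of 21013 genes. *Cxcl14* had 1 match, at base 1009 of a 3′ UTR of 1149 bases (GRCm38 chromosome 13, minus strand, 56288777 to 56288783). *Cxcl12* had 2 matches in a 3′ UTR of 5188 bases (chromosome 6, plus strand, 117176601 to 117176607 and 117179762 to 117179768). Each site is printed 5′ to 3′ with 10 bases of flank on either side and the match in capitals.

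Cxcl14 site: ccatgccacaCACTGCCcctcattaga

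Cxcl12 site 1: ccctcggccaCACTGCCccttgtggcc

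Cxcl12 site 2: aatgcaagttCACTGCCactttgacaa

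A match to the seed is a description of these letters and not evidence that a site is used.

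*Cxcl14* lies on the minus strand of chromosome 13 (GRCm38, 56288643 to 56296551). In vehicle livers 1 to 5 its level was 29.9, 6.25, 4.00, 27.6 and 1.61 CPM. In AAV-GFP livers 1 to 7 it was 1.94, 0.536, 3.14, 6.13, 4.60, 1.63 and 1.60 CPM. In AAV-miR-34b/c livers 1 to 7 it was 60.7, 48.9, 60.9, 64.1, 28.6, 25.1 and 26.2 CPM. Every AAV-miR-34b/c liver was thus above every AAV-GFP liver, and the lowest of the former (25.1 CPM) was above the highest of the latter (6.13 CPM). Such a separation, in either direction, was seen in 1.37% of the 9252 genes tested between these groups.

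**Figure D1:**
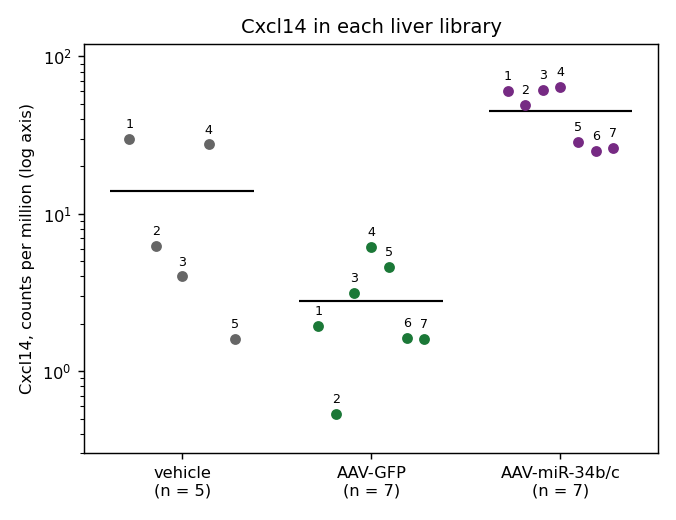
Level of *Cxcl14* in CPM (log axis) in each liver library of the 3 groups. Points are libraries with their replicate number, and lines are group means. The 7 AAV-miR-34b/c libraries sit between 25.1 and 64.1 CPM, above all AAV-GFP libraries, and vehicle libraries 1 and 4 sit near the lowest AAV-miR-34b/c libraries.

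The group means of *Cxcl14* were 2.80 ± 1.96 CPM in AAV-GFP (SD, n = 7), 13.9 ± 13.7 in vehicle (n = 5) and 44.9 ± 17.8 in AAV-miR-34b/c livers (n = 7). Against AAV-GFP, AAV-miR-34b/c livers had a fitted difference of 3.96 on the log2 scale (SE 0.38), or 15.6-fold. It lay between 3.77 and 4.26 when any single library was left out. The 2 highest vehicle livers overlapped the AAV-miR-34b/c group, and 3 vehicle livers lay in or next to the AAV-GFP range, so vehicle could be told apart from neither group by range. Counts in the low livers were small. The 2 counts of AAV-GFP liver 2 gave a 95% exact Poisson interval of 0.0649 to 1.94 CPM and the 4 counts of vehicle liver 5 an interval of 0.438 to 4.12 CPM, both for counting error only.

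The place of vehicle livers in this order rested on libraries 1 and 4. With both, *Cxcl14* was lower in AAV-GFP than in vehicle livers by a log2 fold change of -2.30 (SE 0.57) and higher in AAV-miR-34b/c than in vehicle livers by 1.65 (SE 0.51). Without both, vehicle averaged 3.95 ± 2.32 CPM (SD, n = 3) and the same differences were -0.51 and 3.47. The close pair of AAV-miR-34b/c livers 1 and 2 carried less weight, since the difference from AAV-GFP was 3.81 without them.

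The promoter of *Cxcl14* (RefSeq, GRCm38.p6, minus strand of chromosome 13, 56296502 to 56296801, from 250 bases before to 50 bases after the start site) was searched on both strands for a few motifs. It held the STAT motif TTCNNNGAA at base -191 and a pair of GAAA blocks with 2 bases between them, as in interferon-stimulated response elements, at base -172. These letters were present in 8.30% and 3.44% of 32851 promoters of the same length, respectively, and did not overlap. The GC box GGGCGG also occurred, at bases 13, 17 and 25, and was present in 35.7% of promoters. The promoter is printed with the STAT motif and the pair of GAAA blocks in capitals, since *Cxcl14* was the chemokine chosen by its level.

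Cxcl14 promoter: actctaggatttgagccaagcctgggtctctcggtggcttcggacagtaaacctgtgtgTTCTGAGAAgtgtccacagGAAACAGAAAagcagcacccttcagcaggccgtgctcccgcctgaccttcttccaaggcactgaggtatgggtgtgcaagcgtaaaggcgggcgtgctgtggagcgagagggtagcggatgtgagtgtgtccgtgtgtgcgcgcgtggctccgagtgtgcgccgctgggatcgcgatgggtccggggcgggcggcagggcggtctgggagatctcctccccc

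Of the 7 chemokines with a promoter in the table, *Cxcl14* alone held the STAT motif, and *Cxcl10* also held the pair of GAAA blocks. The promoters of *Cxcl16*, *Ccl2* and *Ccl5* were not used. Promoters of *Cxcl9* (2 matches), *Cxcl10* and *Ccl9* held the NF-κB motif GGGNNTTCC, present in 5.82% of promoters, and that of *Cxcl14* did not. Matches are a description of sequence, and binding was not measured.

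The genes whose level followed *Cxcl14* most closely over the 19 libraries were *Saa2* (Pearson r = 0.93), *Saa1* (0.92), *Orm2* (0.92), *Fgb* (0.92) and *Prtn3* (0.91), among the 9927 genes that passed the filter on low counts over all 3 groups. *Saa1* and *Saa2* encode serum amyloid A proteins, *Orm2* an orosomucoid and *Fgb* the fibrinogen beta chain, all secreted by hepatocytes in the acute phase response, and *Prtn3* encodes a protease of neutrophil granules. The group difference enters these values, and the libraries share their depth and preparation. With group means removed, the 5 closest genes were *Mmd2* (r = 0.82), *Slc10a2* (0.80), *Saa2* (0.79), *Cars* (0.79) and *Saa1* (0.78). *Saa1* and *Saa2* are near-identical copies whose reads may be split between them. The other chemokines compared were *Cxcl12*, *Cxcl9*, *Cxcl16*, *Ccl5*, *Ccl6* and *Ccl9*. Among them *Ccl6* came closest over all libraries, with r = 0.60. With group means removed *Ccl6* was at 0.29 and *Cxcl12* at 0.28. *Cxcl9* had the lowest value among them, -0.47 over all libraries.

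Libraries high in *Cxcl14* were also high in *Saa1*. Vehicle livers 1 and 4 had 10109 and 9561.5 CPM of *Saa1*, against 624 to 812 CPM in the other 3 vehicle livers. AAV-GFP livers had 156 to 5138 CPM and AAV-miR-34b/c livers 3142 to 34628 CPM, so these groups overlapped in *Saa1* but not in *Cxcl14*. The overlap came only through AAV-GFP liver 5, since the next highest AAV-GFP liver, 4, had 1261 CPM of *Saa1*. AAV-GFP liver 5 had the highest *Saa1* of its group with 4.60 CPM of *Cxcl14*. AAV-miR-34b/c livers 5 and 7, with less *Saa1* (3142 and 3254 CPM), had 28.6 and 26.2 CPM of *Cxcl14*. The part of the acute phase response in the level of *Cxcl14* was not tested.

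Neutrophil markers moved with the same libraries. The 9 markers summed to 185 to 3279.8 CPM in AAV-miR-34b/c livers, 28.5 to 257 CPM in AAV-GFP livers and 36.9 to 213 CPM in vehicle livers, where the highest were livers 1 and 4. Of these markers, 4 of the 4 tested were called higher in AAV-miR-34b/c than in AAV-GFP livers, where 1.95% of all genes were. The other 5 had too few counts for the filter. Only 3 of the 9 passed the filter between AAV-GFP and vehicle livers. The tally of 4 thus includes a gene that passed through its counts in AAV-miR-34b/c livers. *Lcn2*, which injured hepatocytes also make, had the highest mean of the 9 in every group. It was at 64.8 CPM in vehicle, 44.7 in AAV-GFP and 760.3 in AAV-miR-34b/c livers. *Ly6g* and *Mpo*, which define the lineage, had at most 14 and 30 counts in any library, and *Ly6g* was at 0 in all vehicle livers. In AAV-miR-34b/c livers 5 and 7 the markers summed to 185 and 214 CPM and *Cxcl14* was above every AAV-GFP liver. These sums were within the AAV-GFP range only through AAV-GFP liver 5 (257 CPM), since the other 6 AAV-GFP livers reached at most 120.8 CPM. The part of neutrophils in the level of *Cxcl14* was not tested.

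**Figure D2:**
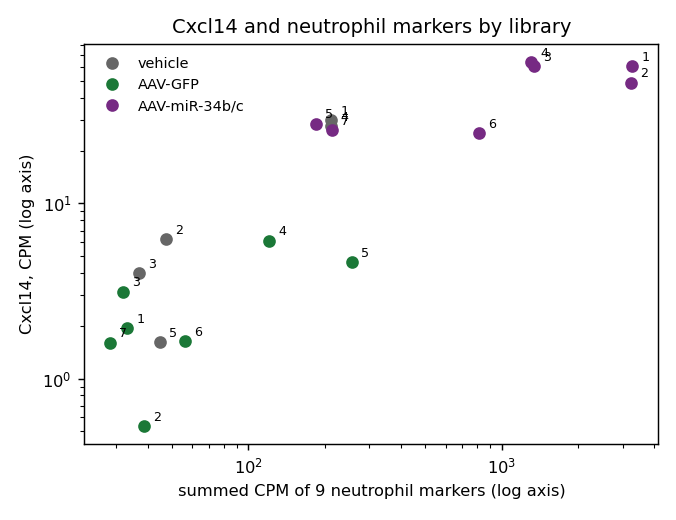
*Cxcl14* (vertical axis, CPM, log scale) against the summed level of 9 neutrophil markers (horizontal axis, CPM, log scale), 1 point per liver library with its replicate number. AAV-miR-34b/c libraries 5 and 7 lie at marker sums of 185 and 214 CPM, below AAV-GFP library 5 (257 CPM) and above the other 6 AAV-GFP libraries (at most 120.8 CPM), and at 28.6 and 26.2 CPM of *Cxcl14*.

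Of the 9 other chemokines, 5 passed the filter on low counts and were tested by edgeR's quasi-likelihood test with adjustment over all genes, and 4 (*Cxcl10*, *Cxcl13*, *Ccl2* and *Ccl5*) had too few counts for it. Between AAV-GFP and vehicle livers, 2 of the 5 were called, both lower (*Ccl6* and *Ccl9*), where 12.7% of all 9522 genes tested were called, 7.54% as higher and 5.19% as lower. Between AAV-miR-34b/c and vehicle livers none of the 5 was called at an adjusted p under 0.05, where 21.9% of 9290 genes were called, 12.2% as higher and 9.75% as lower. *Ccl9* passed there at an unadjusted p under 0.05, and it was called by limma-voom with sample quality weights and with scaling by library size only. DESeq2 called none of these 5 there but called *Cxcl13*. Over the 5 chemokines tested, the median log2 fold change from vehicle was -0.29 in AAV-GFP livers (-0.01 over all genes) and 0.00 in AAV-miR-34b/c livers (0.02 over all genes). Both comparisons use the same vehicle livers.

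**Figure D3:**
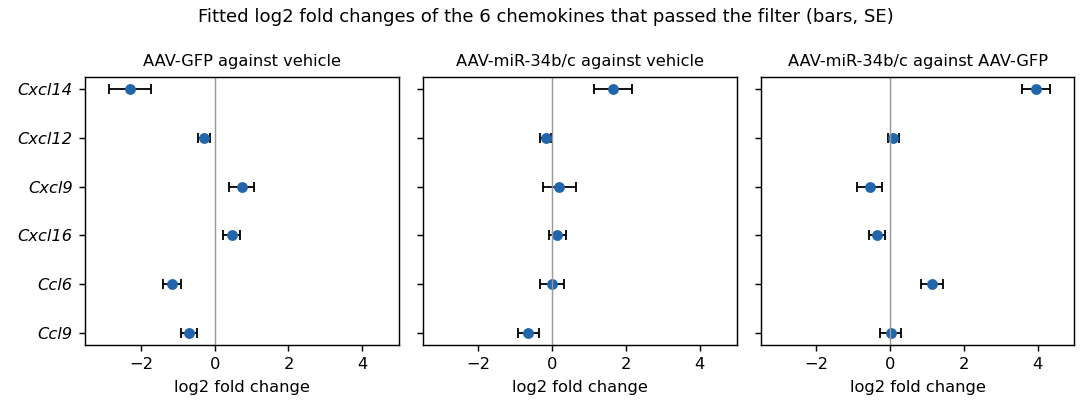
Fitted log2 fold changes (horizontal axis) of the 6 chemokines that passed the filter, in the 3 comparisons named above each panel. Points are estimates and bars are standard errors. *Cxcl14* is the farthest from 0 in each panel, at -2.30, 1.65 and 3.96, and *Ccl6* is at -1.16, 0.00 and 1.15.

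*Ccl6* and *Ccl9* encode myeloid chemokines of rodents that act through CCR1. They are neighbours on the minus strand of chromosome 11, with *Ccl9* at 83572919 to 83578636, *Ccl6* at 83587882 to 83593087 and 9245 bases between them. *Ccl6* was at 43.9, 20.1, 46.7, 43.7 and 42.2 CPM in vehicle livers 1 to 5, at 9.69, 14.5, 12.5, 22.8, 26.5, 18.9 and 17.3 CPM in AAV-GFP livers 1 to 7, and at 54.6, 86.0, 28.5, 28.3, 25, 28.9 and 23.8 CPM in AAV-miR-34b/c livers 1 to 7. AAV-GFP livers were below 4 of the 5 vehicle livers, with vehicle liver 2 inside their range. *Ccl6* fell in AAV-GFP against vehicle livers, from 39.3 ± 10.9 (SD, n = 5) to 17.4 ± 5.85 CPM (SD, n = 7), with a log2 fold change of -1.16 (SE 0.24, edgeR adjusted p = 0.00516). It was called in all 12 fits that left out 1 library. The call was lost without vehicle livers 1 and 4 (-1.05, adjusted p = 0.0687) and with close pairs of libraries summed (-0.98, adjusted p = 0.0799).

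In AAV-miR-34b/c livers *Ccl6* split into 2 high livers, 1 and 2, and 5 livers within 23.8 to 28.9 CPM. The mean over all 7 was 39.3 ± 23.1 CPM, equal to that of vehicle to 3 digits (log2 fold change 0.00, SE 0.32, edgeR adjusted p = 0.997). Without livers 1 and 2 the mean was 26.9 ± 2.33 CPM (SD, n = 5), and *Ccl6* was lower than in vehicle by a log2 fold change of -0.55 (edgeR adjusted p = 0.036). Against AAV-GFP the difference was 1.15 (SE 0.30) over all livers and 0.60 without livers 1 and 2. The comparison with vehicle thus depended on the close pair 1 and 2, which also had the highest sums of neutrophil markers (3279.8 and 3238.6 CPM). The part of neutrophils in this result was not tested.

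*Ccl9* was at 60.4, 65.5, 86.3, 68.4 and 67.6 CPM in vehicle livers, at 28.4, 24.7, 31.4, 55.4, 47.8, 61.8 and 53.5 CPM in AAV-GFP livers and at 66.5, 79.7, 21.2, 24.7, 46.9, 28.5 and 41.0 CPM in AAV-miR-34b/c livers. In AAV-GFP, 6 of 7 livers lay below every vehicle liver, and in AAV-miR-34b/c 5 of 7 did, the exceptions being livers 1 and 2 again. *Ccl9* fell in AAV-GFP against vehicle livers by a log2 fold change of -0.69 (SE 0.22, edgeR adjusted p = 0.041). This call was near the threshold and was lost in 9 of 12 fits that left out 1 library (any vehicle library, or AAV-GFP 1, 2, 3 or 5), at values of -0.79 to -0.58 over the 12. It was also lost with close pairs summed (-0.59, adjusted p = 0.212), without vehicle 1 and 4 together (-0.76, adjusted p = 0.126) and in 1 fit of all 3 groups (-0.69, adjusted p = 0.111). Against vehicle, AAV-miR-34b/c livers differed by -0.65 (SE 0.28, edgeR adjusted p = 0.103), and by -1.11 (adjusted p = 0.000453) without livers 1 and 2. From AAV-GFP livers the AAV-miR-34b/c group differed by 0.02 (SE 0.29).

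The counts of *Ccl6* per count of *Ccl9* had a median of 0.625 in vehicle (0.307 to 0.727), 0.400 in AAV-GFP (0.305 to 0.587) and 1.01 in AAV-miR-34b/c livers (0.534 to 1.35). This ratio is taken within a library and does not depend on scaling. Its ranges overlapped between all groups, and its differences were not tested. Markers of Kupffer cells and other macrophages, cells that make both chemokines, moved in part with them. Of 12 such markers tested between AAV-GFP and vehicle livers, 6 were called lower and none higher, where 5.19% of all genes were called lower and 7.54% higher, and their summed level was 395 to 637 CPM in AAV-GFP, 484 to 891 CPM in vehicle and 571 to 870 CPM in AAV-miR-34b/c livers. Between AAV-miR-34b/c and vehicle livers 2 of the 12 were called lower and none higher, where 9.75% of all genes were called lower and 12.2% higher, with 7 positive and 5 negative fold changes. The markers did not follow 1 pattern. *Timd4*, a marker of resident Kupffer cells, was at 10.5 ± 2.79 CPM in vehicle (SD, n = 5), 2.33 ± 1.06 in AAV-GFP (n = 7) and 3.04 ± 2.97 in AAV-miR-34b/c livers (n = 7), and *C1qb*, which encodes a chain of complement C1q, was at 65.9 ± 22.2, 46.8 ± 14.3 and 89.9 ± 15.9 CPM in the same order. The part of these cells in the results for *Ccl6* and *Ccl9* was not tested.

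**Figure D4:**
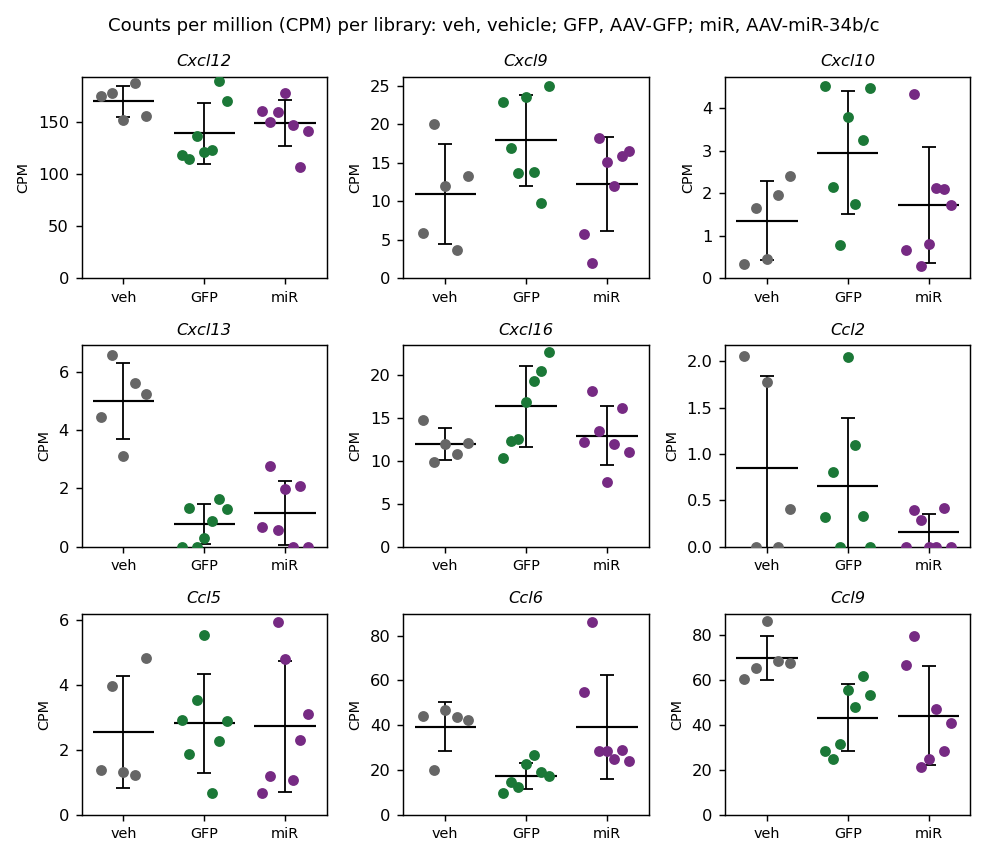
Levels of the 9 chemokines other than *Cxcl14* in CPM, 1 panel per gene, with 1 point per liver library, group means as lines and SD as bars, for the 3 groups of 5, 7 and 7 livers. For *Cxcl13*, the 5 vehicle livers (3.11 to 6.58 CPM) lie above all others, and for *Ccl6* 2 AAV-miR-34b/c livers lie above the rest.

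CXCL13 attracts B cells through CXCR5 and organises lymphoid follicles. *Cxcl13* had 13, 20, 7, 23 and 13 counts in vehicle livers 1 to 5, 0, 5, 0, 1, 4, 5 and 4 counts in AAV-GFP livers and 2, 7, 2, 5, 0, 10 and 0 counts in AAV-miR-34b/c livers. In CPM, the range was 3.11 to 6.58 in vehicle, 0 to 1.63 in AAV-GFP and 0 to 2.76 in AAV-miR-34b/c livers, so all TAA-treated livers were below all vehicle livers. Groups separated in this direction for 2.14% of genes tested between AAV-GFP and vehicle (4.79% in either direction) and for 4.0% of those between AAV-miR-34b/c and vehicle (7.92% in either direction). The mean log2 CPM was lower by 2.14 in AAV-GFP (two-sided exact permutation p = 0.00126, the smallest that 792 splits can give) and lower by 1.90 in AAV-miR-34b/c livers (p = 0.00505, same exact test). Tested over all genes without the filter, edgeR gave log2 fold changes of -2.60 (adjusted p = 0.00185) and -2.08 (adjusted p = 0.0159).

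The drop in *Cxcl13* did not rest on vehicle livers 1 and 4, since without them the differences were -2.12 (exact permutation p = 0.00833) and -1.88 (p = 0.025). Between the TAA-treated groups the mean log2 CPM differed by 0.24. Markers of B cells, the cells drawn by CXCL13, summed to 25 to 58.7 CPM in vehicle, 29.1 to 81.4 CPM in AAV-GFP and 38.7 to 117 CPM in AAV-miR-34b/c livers. Of the 7 such markers only 2 could be tested between AAV-GFP and vehicle livers, and 1 was called lower, where 5.19% of all genes were. It was *Ighm*, the immunoglobulin heavy chain of IgM, at 13.4 ± 5.0 CPM in vehicle (SD, n = 5) and 5.86 ± 3.19 in AAV-GFP livers (n = 7). The part of B cells in the result for *Cxcl13* was not tested. *Cxcr5* had at most 6 counts in any library.

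CXCL9 and CXCL10 are induced by interferon gamma and attract activated T and NK cells through CXCR3. They lie side by side on the minus strand of chromosome 5 (92321347 to 92328079 and 92346638 to 92348889), with 18558 bases between them. *Cxcl9* was at 5.83, 20.1, 12.0, 3.67 and 13.3 CPM in vehicle livers, at 22.9, 16.9, 13.7, 23.6, 13.8, 9.76 and 25 CPM in AAV-GFP livers and at 5.76, 1.97, 18.3, 15.1, 12.0, 15.9 and 16.5 CPM in AAV-miR-34b/c livers. The lowest values were those of vehicle livers 1 and 4 and AAV-miR-34b/c livers 1 and 2, the libraries highest in *Saa1* of their groups. *Cxcl9* was not called in AAV-GFP against vehicle livers (log2 fold change 0.73, SE 0.34, edgeR adjusted p = 0.16), although it was called by limma-voom with sample quality weights (1.07, adjusted p = 0.0247) and without vehicle liver 2 (1.10, adjusted p = 0.0479). Without vehicle livers 1 and 4 the difference was 0.23. Against vehicle, AAV-miR-34b/c livers differed by 0.19 (SE 0.44, edgeR adjusted p = 0.793), and by -0.30 without vehicle livers 1 and 4.

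*Cxcl10* had 1 to 8 counts in vehicle, 2 to 14 in AAV-GFP and 1 to 11 in AAV-miR-34b/c livers. The corresponding means were 1.36 ± 0.924 (SD, n = 5), 2.96 ± 1.44 (n = 7) and 1.72 ± 1.36 CPM (n = 7), and 4 of 7 AAV-GFP livers were above all vehicle livers. Mean log2 CPM was higher than in vehicle by 0.88 in AAV-GFP livers (p = 0.0682 in the exact permutation test, two-sided) and by 0.19 in AAV-miR-34b/c livers (p = 0.697, exact), and neither passed 0.05. The former passed 0.05 without AAV-GFP liver 3 (1.08, exact permutation p = 0.0195) or without vehicle liver 5 (1.07, p = 0.0424). *Ifng* had at most 2 counts in any library and *Cxcr3* at most 4, so their changes could not be followed at this depth. *Irf1*, which takes part in the response to interferon gamma, did not pass the test between AAV-GFP and vehicle livers, with a log2 fold change of -0.17 (SE 0.20).

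CXCL12 retains CXCR4-bearing cells and is made by HSCs and endothelial cells. *Cxcl12* was at 152 to 187 CPM in vehicle livers (median 175), at 114 to 189 in AAV-GFP livers (median 123) and at 107 to 178 in AAV-miR-34b/c livers (median 149.5). AAV-GFP livers 6 and 7, at 188.7 and 170.0 CPM, were above and within the vehicle range, and the other 5 were below all vehicle livers. The differences from vehicle were -0.29 (SE 0.16, edgeR adjusted p = 0.225) and -0.18 (SE 0.14, adjusted p = 0.368), and AAV-miR-34b/c livers differed from AAV-GFP livers by 0.09 (SE 0.15). *Cxcl12* was called lower in AAV-GFP than in vehicle livers by limma-voom with sample quality weights (-0.38, adjusted p = 0.0425). The approximate 95% interval of the difference between the TAA-treated groups was -0.20 to 0.39 on the log2 scale. *Cxcr4* had 8 counts in all vehicle livers together, 85 in AAV-GFP and 34 in AAV-miR-34b/c livers, which was too few for the filter. It was called higher in AAV-GFP than in vehicle livers by DESeq2 and by edgeR without the filter.

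CXCL16 is a membrane-bound chemokine that ADAM10 and ADAM17 release, and its receptor is CXCR6. *Cxcl16* was at 14.8, 9.87, 12.0, 10.8 and 12.1 CPM in vehicle livers, at 10.3, 12.3, 12.5, 16.9, 19.3, 20.5 and 22.7 CPM in AAV-GFP livers and at 12.2, 18.1, 13.5, 7.56, 12.0, 16.1 and 11.0 CPM in AAV-miR-34b/c livers. AAV-GFP livers 4 to 7 were above all vehicle livers, yet the groups overlapped. The differences from vehicle were 0.47 (SE 0.23, edgeR adjusted p = 0.186) and 0.13 (SE 0.23, adjusted p = 0.706). *Adam10* and *Adam17* did not pass the test in any of the 3 comparisons, with log2 fold changes between -0.11 and 0.20.

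CCL2 attracts monocytes through CCR2 and CCL5 attracts T cells and monocytes. *Ccl2* had at most 7 counts in any library, and it had none in 2 livers each of vehicle and AAV-GFP and in 4 of AAV-miR-34b/c. Its differences from vehicle in mean log2 CPM were -0.10 (two-sided exact permutation p = 0.845) and -0.67 (p = 0.173, exact). *Ccl5* had 2 to 21 counts in any library, with means of 2.54 ± 1.72 (SD, n = 5), 2.81 ± 1.52 (n = 7) and 2.72 ± 2.0 CPM (n = 7) in the 3 groups in the order above, and differences of 0.15 (exact permutation p = 0.731) and 0.01 (p = 0.979). Neither gene showed a difference from vehicle that this depth could detect.

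The level of most chemokines varied more between livers of a group than that of *Cxcl12*, whose coefficient of variation was 8.84% in vehicle, 20.9% in AAV-GFP and 14.7% in AAV-miR-34b/c livers. That of *Cxcl14* was 98.8%, 70.2% and 39.6% in the same order, and that of *Ccl6* 27.7%, 33.5% and 58.8%. Counting error adds to these coefficients, and more so at low counts. *Cxcl12* had the most counts of the 10 chemokines, 8971 over all libraries, against 1257 for *Cxcl14* and 1834 for *Ccl6*. In vehicle livers, libraries 1 and 4 were high in *Cxcl14* and low in *Cxcl9*. In AAV-miR-34b/c livers, libraries 1 and 2 were high in *Ccl6* and *Ccl9* and low in *Cxcl9*.

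The other genes of the pathway were 29 listed ligands, 19 receptors, 5 atypical receptors, 3 proteases and 16 inducers or transducers. Most ligands were scarce. No count was found for 10 of the 29 ligands, and a further 8 had at most 3 counts in every library. Of all 72 genes, 19 could be tested between AAV-GFP and vehicle livers, and 2 were called, both higher, where 12.7% of all genes were called and 7.54% as higher. Between AAV-miR-34b/c and vehicle livers 18 were tested, and 3 were called higher and 2 lower, where 21.9% of all genes were called, 12.2% as higher and 9.75% as lower. In AAV-miR-34b/c against AAV-GFP livers 19 were tested, and 2 were called higher and 1 lower, where 3.36% of 9252 genes were called, 1.95% as higher and 1.42% as lower.

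**Figure D5:**
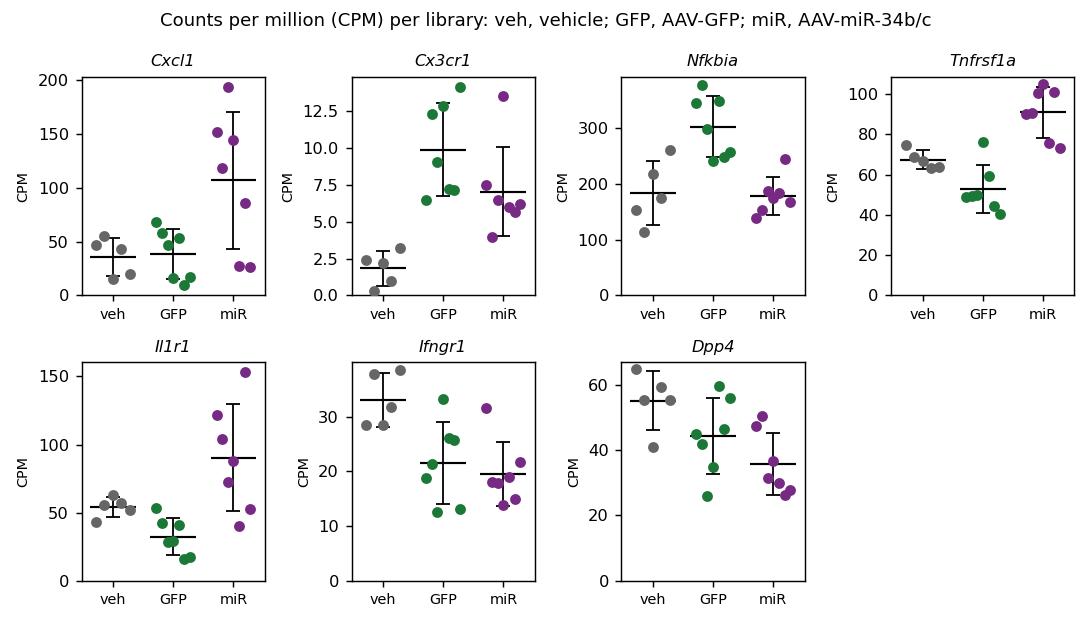
Levels in CPM of the 7 other chemokine pathway genes called in at least 1 comparison, 1 panel per gene, with 1 point per liver library, group means as lines and SD as bars. All 14 TAA-treated livers lie above all vehicle livers for *Cx3cr1*, and *Nfkbia* has its highest mean in AAV-GFP livers (303.1 CPM). Of all genes tested, vehicle did not overlap AAV-GFP livers in 4.79% and AAV-miR-34b/c livers in 7.92%, in either direction.

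*Cxcl1*, a neutrophil attractant that binds CXCR2, was the only other ligand called. It was at 15.1 to 55.6 CPM in vehicle livers, at 9.76 to 67.8 CPM in AAV-GFP livers and at 152, 118, 194, 144, 27.2, 86.2 and 26.2 CPM in AAV-miR-34b/c livers 1 to 7. AAV-miR-34b/c livers 5 and 7 were within the range of the other groups, and the other 5 were above both. *Cxcl1* rose in AAV-miR-34b/c against vehicle livers by 1.55 on the log2 scale (SE 0.46, edgeR adjusted p = 0.025). This call was lost without vehicle 3, 4 or 5 or AAV-miR-34b/c 3, one at a time. It was also lost without vehicle 1 and 4 together (1.80, edgeR adjusted p = 0.0852) and with close pairs summed. Against AAV-GFP the difference was 1.45 (SE 0.46, edgeR adjusted p = 0.0979), and the call was gained without AAV-miR-34b/c 7 (1.62, adjusted p = 0.0499).

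*Cx3cr1* encodes the receptor of fractalkine on monocytes and their macrophages. It was at 0.329 to 3.22 CPM in vehicle, 6.46 to 14.1 in AAV-GFP and 3.95 to 13.5 CPM in AAV-miR-34b/c livers. Vehicle overlapped neither TAA-treated group. Such a separation from vehicle, in either direction, was seen in 4.79% of genes tested for AAV-GFP and 7.92% for AAV-miR-34b/c livers. *Cx3cr1* rose against vehicle by 2.47 (SE 0.41, edgeR adjusted p = 0.000803) in AAV-GFP and by 1.98 (SE 0.44, adjusted p = 0.00597) in AAV-miR-34b/c livers. It was called in all 12 fits that left out 1 library in each comparison. The first call was kept without vehicle livers 1 and 4 (2.38, adjusted p = 0.0162) and with close pairs summed (2.58, adjusted p = 0.00718). The second was lost in both (1.90, adjusted p = 0.0572, and 2.03, adjusted p = 0.0517). Of 10 markers of recruited monocytes and macrophages, *Cx3cr1* among them, 4 could be tested between AAV-GFP and vehicle livers. Of these, 3 were called higher and 1 lower, where 7.54% and 5.19% of all genes were. Between AAV-miR-34b/c and vehicle livers 6 could be tested, and 3 were called higher and 1 lower (12.2% and 9.75% of all genes). These tallies include genes that passed the filter through their counts in TAA-treated livers. In all vehicle livers together *Cx3cr1* had 25 counts, at most 8 in any, and *Gpnmb*, another of the 10, had 3. Such genes could hardly be called lower, so the tallies are a description that supports nothing. The part of these cells was not tested.

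*Nfkbia*, which encodes the NF-κB inhibitor and is itself induced by NF-κB, was at 114 to 261 CPM in vehicle, 242 to 379 in AAV-GFP and 138 to 245 CPM in AAV-miR-34b/c livers. It rose in AAV-GFP against vehicle by 0.72 (SE 0.20, edgeR adjusted p = 0.0225). This call was lost without vehicle 1 or 4, without both (0.61, edgeR adjusted p = 0.199) and with close pairs summed. *Nfkbia* fell by 0.77 (SE 0.15, edgeR adjusted p = 0.00653) in AAV-miR-34b/c against AAV-GFP livers. There it was called in all 14 fits that left out 1 library but not with close pairs summed (-0.66, edgeR adjusted p = 0.177). *Tnfrsf1a*, a receptor of TNF, was at 63.3 to 74.5 CPM in vehicle, 40.3 to 76.1 in AAV-GFP and 73.3 to 105 CPM in AAV-miR-34b/c livers. It rose in AAV-miR-34b/c livers by 0.78 (SE 0.15, edgeR adjusted p = 0.00597) against AAV-GFP, a call lost with close pairs summed (0.78, adjusted p = 0.09). Its rise against vehicle was 0.43 (SE 0.14, edgeR adjusted p = 0.0336). This call was lost without vehicle 3, 4 or 5 or AAV-miR-34b/c 3, 4 or 6, one at a time. It was also lost without vehicle 1 and 4 together (0.46, edgeR adjusted p = 0.123) and with close pairs summed.

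*Il1r1*, the signalling receptor of interleukin 1, rose in AAV-miR-34b/c against AAV-GFP livers by 1.46 (SE 0.30, edgeR adjusted p = 0.00993). It was at 122, 104, 72.8, 88.0, 40.6, 153 and 52.7 CPM in AAV-miR-34b/c livers 1 to 7. Of these 7, 5 were above every AAV-GFP liver (15.9 to 53.6 CPM). Vehicle livers lay between, at 42.9 to 63.1 CPM, with overlap. Against vehicle, *Il1r1* differed by -0.72 in AAV-GFP (SE 0.25, edgeR adjusted p = 0.0633) and by 0.74 in AAV-miR-34b/c livers (SE 0.26, adjusted p = 0.0512). Neither difference was called. *Ifngr1*, a chain of the interferon gamma receptor, fell by 0.75 (SE 0.21, edgeR adjusted p = 0.0173) in AAV-miR-34b/c against vehicle livers, from 33.0 ± 4.94 (SD, n = 5) to 19.6 ± 5.88 CPM (SD, n = 7). Without vehicle livers 1 and 4 this change was -0.83 with an adjusted p of 0.0657, and with close pairs summed -0.82 with 0.084. *Dpp4*, a protease that trims several chemokines, fell by 0.62 (SE 0.19, edgeR adjusted p = 0.0302) in the same comparison. This call was lost in 9 of 12 fits without 1 library (those without vehicle 1, 2, 4 or 5 or AAV-miR-34b/c 3 to 7). It was also lost without vehicle 1 and 4 together (-0.50, edgeR adjusted p = 0.218) and with close pairs summed. *Tnf* and *Il6* had at most 3 and 1 counts in any library.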

How the data were processed

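Liver RNA of 19 mice was prepared with a QuantSeq 3′ kit and sequenced as single reads of 100 bases. The authors filtered, trimmed, aligned and counted the reads, and the deposited values are raw whole-number counts per gene. The submitters' processing notes name STAR and mm10. The release of the aligner was not given in the sources used here. Of 31053 genes listed, 119 carried no symbol and 13985 had no count. All 19 columns were used. Positions and 3′ UTRs were taken from GENCODE release M21 (GRCm38), and promoters and the microRNA from RefSeq (GRCm38.p6).

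The chemokines and all gene lists were chosen with earlier results of these data known. Pairs of groups were compared with edgeR 4.0.16 in R 4.3.3 (TMM scaling, a filterByExpr minimum of 10 counts and of 15 in total, quasi-likelihood test), with Benjamini-Hochberg adjustment over all genes and a threshold of 0.05. The fit was tested on simulated data. Chemokines under the filter were compared by exact two-sided permutation tests of log2 CPM (prior count 2), 8 main tests without adjustment. These were repeated, also without adjustment, with libraries left out and with other scalings. With 5 and 7 livers the smallest p was 0.00126. Intervals of fold changes are normal approximations from the SE. Poisson intervals, from scipy 1.17.1, cover counting error only. The use of molecular identifiers was not given in the sources used here.

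Besides the 10 chemokines, genes of the chemokine lists were named where called in any comparison, as were the 5 genes most correlated with *Cxcl14* over all libraries and the 5 most correlated after removing group means. *Saa1*, *Irf1*, *Timd4*, *C1qb*, *Ighm*, the neutrophil markers, the chemokine receptors and cytokines named with counts, and *Adam10* and *Adam17* were named after their values were seen. The labels call the samples biological replicates, but close pairs of libraries could share more than a group, and p-values measure the spread between these libraries. The alternatives were other filters, scalings, DESeq2 1.42.0, limma 3.58.1 (voom with sample quality weights), 1 fit of all 3 groups, a replicate block, close pairs summed and each library left out. Leaving out vehicle 1 and 4 or AAV-miR-34b/c 1 and 2 together was chosen after seeing the data. Some genes are not reported here.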

Additional observations from a re-analysis of the deposited data

Results flagged for a closer look

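For 25 genes (the 10 chemokines, the genes closest to *Cxcl14* and the pathway genes called in any comparison), 75 groups of libraries were examined for a single library far from the rest, and 2 were found where chance gives about 1 in 20 groups, or 3.75. *Ccl6* was lowest in vehicle liver 2, at 4.37 log2 CPM from 61 counts, with the next vehicle liver at 5.42. *Cars*, a tRNA synthetase gene, was highest in AAV-miR-34b/c liver 6, at 5.37 log2 CPM from 195 counts, with the next liver at 5.09.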

How the results depend on the processing

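Counts of calls depended on the processing, and the causes were not tested. The settings test different numbers of the 9 chemokines other than *Cxcl14*, which is a description and was not counted. In AAV-GFP against vehicle livers 2 were called (*Ccl6* and *Ccl9*), but 4 by limma-voom with sample quality weights (*Cxcl9* and *Cxcl12* added), 1 in 1 fit of all 3 groups (*Ccl6*), 1 with close pairs summed (*Cxcl13*), 0 without vehicle 1 and 4 (2 at an unadjusted p under 0.05) and 1 to 2 with 1 library left out. In AAV-miR-34b/c against vehicle livers 0 were called by edgeR (1 unadjusted), but 1 without the filter and by DESeq2 (*Cxcl13*), 1 with library size only and by limma-voom (*Ccl9*), 2 without AAV-miR-34b/c 1 and 2 (*Ccl6* and *Ccl9*) and 0 to 1 with 1 library left out. In AAV-miR-34b/c against AAV-GFP livers the counts are a description that supports nothing. They were 1 with all libraries, 0 with the replicate block, with close pairs summed and without AAV-miR-34b/c 1 and 2 (1 unadjusted in each), and 0 to 1 with 1 library left out. Of the other pathway genes, 2 were called in the first comparison, but 4 without the filter, 1 with at least 10 counts, 5 by limma-voom and 1 to 3 with 1 library left out. In the second 5 were called, but 1 with the replicate block, 0 with close pairs summed (7 unadjusted) or without vehicle 1 and 4 (4 unadjusted), and 2 to 6 with 1 library left out. In the third 3 were called, but 1 with close pairs summed, and 3 to 4 with 1 library left out.

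Signs turned mostly for differences that were not called. The exception was *Orm2* in AAV-GFP against vehicle livers, at -2.54 with all libraries, past the threshold, and at 0.10 without vehicle 1 and 4. In the same comparison *Ccl5* was at -0.22 without them and *Cxcl1* at -0.17 with close pairs summed. With 1 library left out, *Ccl2* ranged from -0.34 to 0.18, *Ccl5* from -0.01 to 0.38 and *Cxcl1* from -0.10 to 0.30. In AAV-miR-34b/c against vehicle livers, values were -0.30 for *Cxcl9* and -0.36 for *Ccl5* without vehicle 1 and 4, -0.01 for *Cxcl16*, -0.09 for *Ccl5* and -0.18 for *Ccl6* with library size only, -0.03 for *Cxcl16* and -0.45 for *Ccl6* by limma-voom, 0.10 for *Nfkbia* with close pairs summed, and -0.55 for *Ccl6* and 0.05 for *Nfkbia* without AAV-miR-34b/c 1 and 2. With 1 library left out, *Cxcl9* ranged from -0.06 to 0.54, *Cxcl10* from -0.04 to 0.38, *Ccl5* from -0.19 to 0.25, *Ccl6* from -0.31 to 0.10 and *Nfkbia* from -0.17 to 0.11. Library size only moved the median of all genes to -0.128 in that comparison and to -0.201 in AAV-miR-34b/c against AAV-GFP livers.

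Same-numbered libraries deviated together with correlations of -0.285 to 0.277, so the numbers were not taken to pair them. With the replicate block, 3 of these chemokines were called in AAV-GFP against vehicle livers (*Cxcl12* added, at -0.46 with an edgeR adjusted p of 0.0198), and 0 in AAV-miR-34b/c against vehicle livers (1 unadjusted). Low depth limits *Cxcl10*, *Cxcl13*, *Ccl2* and *Ccl5* and most receptors.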
